A study of Mus musculus with 26 samples.

Results

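Cytochromes P450 of the families that oxidize drugs, toxicants, steroids, retinoids and fatty acids were examined across genotype and time in mouse liver. Members were the gene symbols of the CYP1A, CYP1B, CYP2D, CYP2E, CYP2F, CYP2G, CYP2J, CYP2R, CYP2S, CYP2U, CYP3A, CYP17A, CYP26A, CYP26B and CYP39A subfamilies in the expression tables, each represented by its best expressed transcript. This rule, which uses names and not values, found 39 of the 22322 symbols, with 47 transcripts between them. They comprised 3 CYP1 genes, 9 CYP2D genes, 3 genes of the CYP2E, CYP2F and CYP2G subfamilies, 8 CYP2J genes, 3 genes of the CYP2R, CYP2S and CYP2U subfamilies, 9 CYP3A genes and 4 genes for steroid, oxysterol and retinoic acid oxidation. Cyp2d37-ps and Cyp2j7-ps are pseudogenes by their symbols. Many of these genes are close copies of a neighbour, so reads may be shared or split between them, and the values of single paralogs are uncertain to that extent.

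Livers were taken from 8-week-old mice after 2 days in complete darkness. Circadian time 0 (CT0) is the former hour of lights on, and CT12 fell 12 h later. The Bmal1 experiment compared mice with a liver-specific knockout of Bmal1, the clock activator whose gene symbol is Arntl, with wild-type C57BL/6 mice (3 livers each per time). The Nr1d1 experiment compared mice labelled Nr1d1 knockout, which should lack the clock repressor REV-ERBα, with wild-type C57BL/6 mice (2 livers each per time). How the alleles were built and which promoter drove the recombinase is not given in the sources used here, and no group received a drug or inducer.

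Cytochromes P450 are heme enzymes of the endoplasmic reticulum or mitochondria that insert oxygen into their substrates. Those of the endoplasmic reticulum take electrons from the reductase Por. In hepatocytes the CYP1, CYP2D, CYP2E and CYP3A enzymes clear drugs and toxicants. Their genes respond to sensors such as the aryl hydrocarbon receptor and the nuclear receptors PXR (Nr1i2) and CAR (Nr1i3), and several CYP2D and CYP3A genes in mouse liver are set by the sex-specific pattern of growth hormone.

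Values are RPKM, that is, reads divided by transcript length and library depth, so levels can be set beside each other between genes. Reads recovered from the RPKM steps came to 4796348 to 7925220 per Bmal1 library, up to a factor common to the libraries. These sums leave out symbols whose reads were not recovered, Cyp2e1 and Cyp3a11 among them. The targeted transcript Arntl stood at 15.7 to 16.3 RPKM in control livers at CT0 and at 5.73 to 7.45 RPKM in knockout livers, and at CT12 it stood at 0.68 to 1.26 against 3.59 to 4.37 RPKM. A partial deletion cannot be seen in a value for the whole transcript. The summed RPKM of 6 hepatocyte markers was 37221 to 49635 in control and 24976 to 33261 in Bmal1 knockout livers, and Alb alone of the 6 was called lower. In these bulk samples, fewer cells of a type and less RNA per cell cannot be told apart.

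In control livers of the Bmal1 experiment the most abundant member was Cyp2e1, which oxidizes ethanol and acetaminophen, at a mean of 3007 RPKM over 6 livers (range 1836 to 4026). Cyp3a11, the main drug-inducible CYP3A gene of mouse liver, followed at 2104 RPKM (range 1484 to 3162), so the ranges of the leading pair overlapped. Together they made up 56.8% to 67.3% of the summed RPKM of all members in the 12 livers. Below them came Cyp3a25 at 581 RPKM, Cyp2d9 at 453, Cyp2d26 at 416, Cyp2d10 at 348, Cyp2f2 at 310, Cyp2j5 at 263 and Cyp1a2, the constitutive CYP1 enzyme of liver, at 190 RPKM (189.53 before rounding). Cyp3a25, with at most 644 RPKM in a control liver, lay below every control value of Cyp3a11. From Cyp3a25 down to Cyp1a2 each range overlapped the next, that of Cyp1a2 reaching 219 RPKM and that of Cyp2j5 beginning at 216. These 9 genes had means of at least 100 RPKM.

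At the other end, 14 members had a control mean under 1 RPKM. Cyp1a1, the CYP1 gene most strongly induced through the aryl hydrocarbon receptor, stood at 0.162 to 0.953 RPKM over the 12 livers. Cyp1b1 stood at 0.0725 to 0.272 RPKM. Cyp2j11, Cyp2j12, Cyp2j13 and Cyp2j7-ps were listed at 0 in all 12 Bmal1 libraries and in replicate 1 of the Nr1d1 libraries, and above 0 in all 4 libraries of its replicate 2. Of the 39 members, 29 passed the filter of a mean of 0.5 RPKM among the Bmal1 libraries and 34 among the Nr1d1 libraries.

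Members varied more between livers of a group than genes in general: the median within-group SD of log2(RPKM + 0.5) was 0.27 for the 29 members tested and 0.18 for all genes tested. The retinoic acid hydroxylase genes were the least repeatable. Cyp26a1 ranged from 2.39 to 71.0 RPKM over the 12 livers (SD 1.11 on the log2 scale), and Cyp26b1 from 0.0788 to 13.2 (SD 1.00). The steroid hydroxylase gene Cyp17a1 ranged from 0.291 to 11.7 RPKM (SD 0.79). Of the abundant members, Cyp2d22 had an SD of 0.098 and Cyp2d10 of 0.14.

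**Figure D1:**
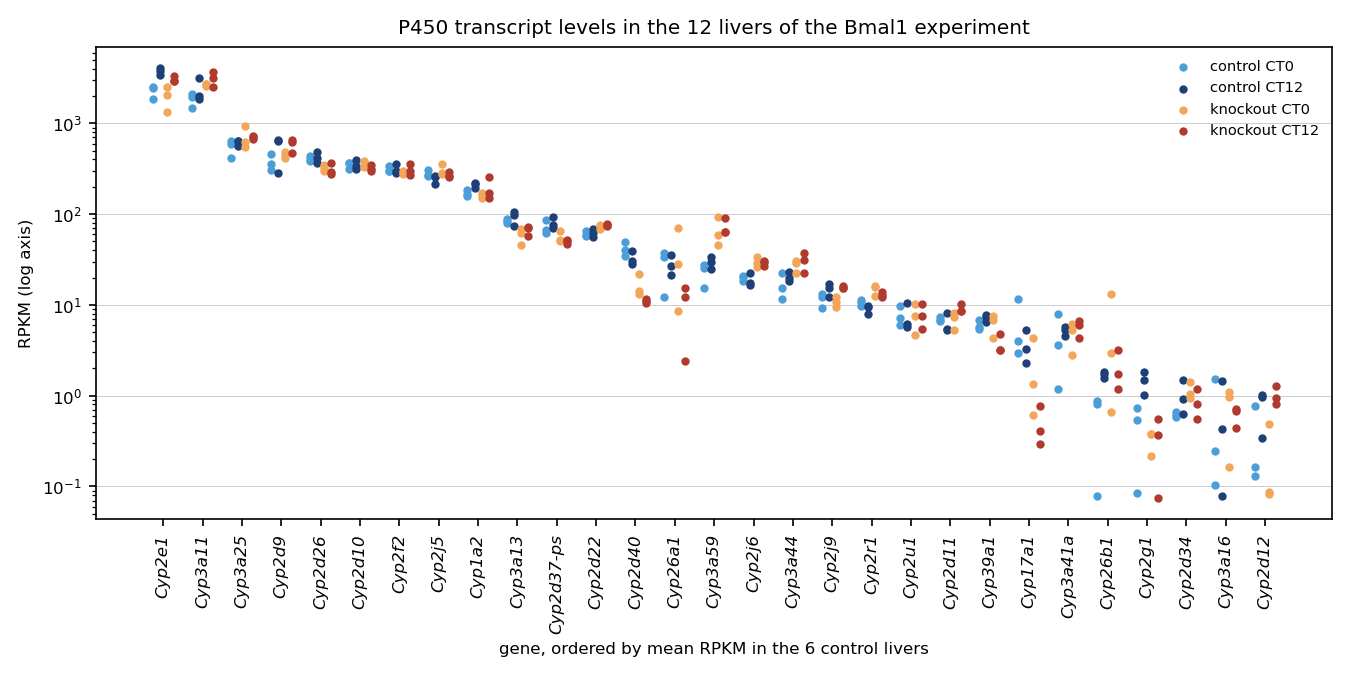
RPKM (log axis) of the 29 P450 genes tested in the Bmal1 experiment, 1 point per liver and 3 livers per group, ordered by the mean of the 6 control livers. Cyp2e1 and Cyp3a11 stand above the other genes in every group, and Cyp26a1, Cyp26b1 and Cyp17a1 spread widely between livers of 1 group.

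At CT0, 3 of the 29 members tested passed the threshold between Bmal1 knockout and control livers: Cyp3a59 and Cyp2j6 rose and Cyp2d40 fell. Over all genes 1.62% were called, 0.909% higher and 0.708% lower (limma on log2(RPKM + 0.5), two-sided, Benjamini-Hochberg adjusted p under 0.05 over the 11439 genes tested), and 10.3% of the members were. At CT12, 9 of the 29 members passed (31%), 3 upward and 6 downward, where 9.68% of all genes were called. By direction, 10.3% of members rose against 6.46% of all genes, and 20.7% fell against 3.22%. The median difference of the members was 0.05 at CT0 and 0.07 at CT12 on the log2 scale, beside 0.01 and 0.09 for all genes. Single members thus moved in both directions around a median close to that of all genes.

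Cyp3a59, a CYP3A gene of the cluster on chromosome 5, rose at both times. Its levels were 15.5, 25.6 and 27.4 RPKM in control livers at CT0 and 46.0, 59.6 and 92.1 RPKM in knockout livers. At CT12 they were 33.9, 30.0 and 24.9 RPKM in control and 63.6, 89.7 and 64.1 RPKM in knockout livers. Every knockout liver lay above every control liver. The log2 difference was 1.49 ± 0.26 (SE, adjusted p = 0.0147) at CT0 and 1.27 ± 0.26 (adjusted p = 0.00922) at CT12. With the spread taken from the CT0 groups alone, the CT0 call was lost (adjusted p = 0.076).

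Other CYP3A genes lay higher in knockout livers without passing the threshold. Cyp3a11 stood at 1484, 2126 and 1962 RPKM in control livers at CT0 against 2587, 2686 and 2749 RPKM in knockout livers. These values do not overlap, but the difference of 0.54 ± 0.20 had an adjusted p of 0.251, and at CT12 the groups overlapped. Cyp3a44, a gene with female-biased expression in mouse liver, stood at 11.8 to 22.3 RPKM in control and 22.4 to 30.8 RPKM in knockout livers at CT0 (0.75 ± 0.23, adjusted p = 0.142). Cyp3a25 differed by 0.34 at CT0, where its groups overlapped, and by 0.20 at CT12. At CT12 its groups were separate (556 to 641 against 679 to 719 RPKM), without passing (adjusted p = 0.585). Cyp3a13, which lies outside the main CYP3A cluster, went the other way at both times. At CT0 it stood at 79.4 to 89.1 RPKM in control and 45.6 to 68.2 RPKM in knockout livers (-0.53 ± 0.16, adjusted p = 0.15). At CT12 it stood at 73.4 to 106 and 57.2 to 71.5 RPKM (-0.46 ± 0.16, adjusted p = 0.104).

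Promoters are shown for Cyp3a59 and 3 CYP3A relatives because Cyp3a59 was called and the relatives were not. Each line gives the bases from 200 to 110 before the RefSeq start, 5′ to 3′ on the gene's strand, on chromosome 5 of GRCm38.p6. Capitals mark AGGTCA, the core motif that many nuclear receptors recognize, on either strand (TGACCT), and in Cyp3a11 also the A/T-rich bases of the longer element bound by REV-ERB and ROR proteins.
Cyp3a59, chr5:146079058-146079148, plus strand: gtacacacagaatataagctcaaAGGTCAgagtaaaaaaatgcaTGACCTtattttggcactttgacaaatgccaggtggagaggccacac
Cyp3a25, chr5:146009727-146009817, minus strand: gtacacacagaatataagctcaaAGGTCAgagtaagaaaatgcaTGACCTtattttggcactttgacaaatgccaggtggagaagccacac
Cyp3a11, chr5:145879964-145880054, minus strand: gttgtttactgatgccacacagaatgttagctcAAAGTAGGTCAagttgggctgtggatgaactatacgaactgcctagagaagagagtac
Cyp3a44, chr5:145805984-145806074, minus strand: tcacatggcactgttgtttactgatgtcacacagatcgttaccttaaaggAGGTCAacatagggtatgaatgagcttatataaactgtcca

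Over 250 bases before the start, Cyp3a59 and Cyp3a25 were 95.6% identical (239 of 250 aligned bases), and both carry the same pair of AGGTCA motifs in opposite orientation. The values of their transcripts differed: the 6 control livers had 15.5 to 33.9 RPKM of Cyp3a59 and 416 to 644 RPKM of Cyp3a25. Cyp3a25 is represented by 1 of its 2 transcripts, and how reads shared by the paralogs were counted is not given. The part of either in this gap was not tested. Cyp3a11 and Cyp3a59 were 49.2% identical over the same stretch. Of 32 member promoters (250 bases before to 50 after the start, 30 members matched), 9 held AGGTCA on either strand, or 28.1%, beside 16.3% of all 32851 promoters. These 9 are not independent: Cyp3a25 counts 2 times with nearly the same start, and Cyp3a57 and Cyp3a59 hold the same motif pair. The upstream bases of Cyp3a57 were 88.1% identical to those of Cyp3a25. The REV-ERB and ROR element was found in 1 of 32, Cyp3a11, and in 0.384% of all promoters.

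Cyp2j6, a CYP2J enzyme gene whose relatives oxidize arachidonic acid, also rose at both times. Control livers at CT0 had 18.2, 20.6 and 20.4 RPKM and knockout livers 33.4, 26.2 and 28.7 RPKM. At CT12 control livers had 22.5, 16.5 and 17.6 RPKM and knockout livers 30.1, 30.4 and 27.1 RPKM. No control liver reached the lowest knockout liver. The log2 difference was 0.56 ± 0.12 (adjusted p = 0.0463) at CT0 and 0.63 ± 0.12 (adjusted p = 0.00774) at CT12. The CT0 call, near the threshold, was lost in 9 of 12 fits that each left out 1 liver (adjusted p 0.0518 to 0.14) and kept without control CT12 replicate 1 or 2 or knockout CT0 replicate 2.

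The Cyp2j6 promoter was the only 1 of the 32 to hold the E-box CACGTG, to which BMAL1 and its partner CLOCK bind, and 7.15% of all promoters hold it. The last 100 bases before the start are shown because of this motif, in capitals, 44 bases before the start (GRCm38.p6, minus strand).
Cyp2j6, chr4:96553652-96553751: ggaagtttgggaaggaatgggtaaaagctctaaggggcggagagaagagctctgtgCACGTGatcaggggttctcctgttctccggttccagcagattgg

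Elsewhere in the CYP2J subfamily, Cyp2j5 stood at 261 to 309 RPKM in control and 275 to 358 RPKM in knockout livers at CT0, and Cyp2j9 at 9.33 to 13.3 and 9.52 to 12.2 RPKM. Neither passed the threshold at either time. The D-box of the PAR bZIP clock factors (TTATGTAA or TTACGTAA, either strand) was in none of the 32 member promoters and in 1.056% of all promoters. The core of the aryl hydrocarbon receptor element (GCGTG, either strand) was in 7 of 32, or 21.9%, against 32.4% of all promoters.

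The most repeatable fall was that of 1 CYP2D gene, Cyp2d40, while other genes of the subfamily went either way. Cyp2d40 stood at 40.6, 34.9 and 49.5 RPKM in control livers at CT0 and at 21.9, 13.2 and 14.4 RPKM in knockout livers. At CT12 it stood at 30.5, 39.5 and 28.3 RPKM in control and at 10.99, 10.5 and 11.6 RPKM in knockout livers. The groups were separate at both times, with differences of -1.33 ± 0.19 (adjusted p = 0.00483) and -1.52 ± 0.19 (adjusted p = 0.000301). These calls held in each of the 12 fits without 1 liver and under the 9 other alternatives.

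Cyp2d37-ps stood at 70.9, 92.5 and 76.1 RPKM in control livers at CT12 and at 46.9, 50.7 and 51.6 RPKM in knockout livers, and fell by 0.67 ± 0.14 on the log2 scale (adjusted p = 0.0115). At CT0 the control values of 66.6, 61.8 and 86.2 RPKM overlapped the knockout values of 65.8, 50.7 and 51.9 (adjusted p = 0.308). Cyp2d26 stood at 412, 368 and 486 RPKM in control livers at CT12 and at 277, 291 and 363 RPKM in knockout livers. The groups did not overlap, and Cyp2d26 fell by 0.44 ± 0.13 (adjusted p = 0.0456), although this call was lost in 9 of 12 fits without 1 liver (adjusted p 0.0535 to 0.172). It held without control CT12 replicate 2, knockout CT0 replicate 1 or knockout CT12 replicate 3. At CT0 the values of 387, 407 and 436 RPKM in control and 298, 320 and 351 RPKM in knockout livers were also separate (-0.34, adjusted p = 0.236).

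Other CYP2D genes did not pass. Cyp2d22 was higher in every knockout liver, at 69.1 to 75.7 RPKM against 57.1 to 65.7 at CT0 and at 74.3 to 78.8 against 55.8 to 68.3 at CT12, but with small differences of 0.27 and 0.31 (adjusted p = 0.184 and 0.0505). Cyp2d9, a male-biased gene of mouse liver, ranged from 306 to 464 RPKM in control and 411 to 486 RPKM in knockout livers at CT0. Cyp2d10 stayed between 295 and 395 RPKM in all 12 livers, and its differences were 0.08 at CT0 and -0.12 at CT12. Cyp2d11 was higher in knockout livers at CT12, at 8.64 to 10.3 against 5.25 to 8.11 RPKM (0.53 ± 0.17, adjusted p = 0.0771). At CT0 its difference was -0.03.

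**Figure D2:**
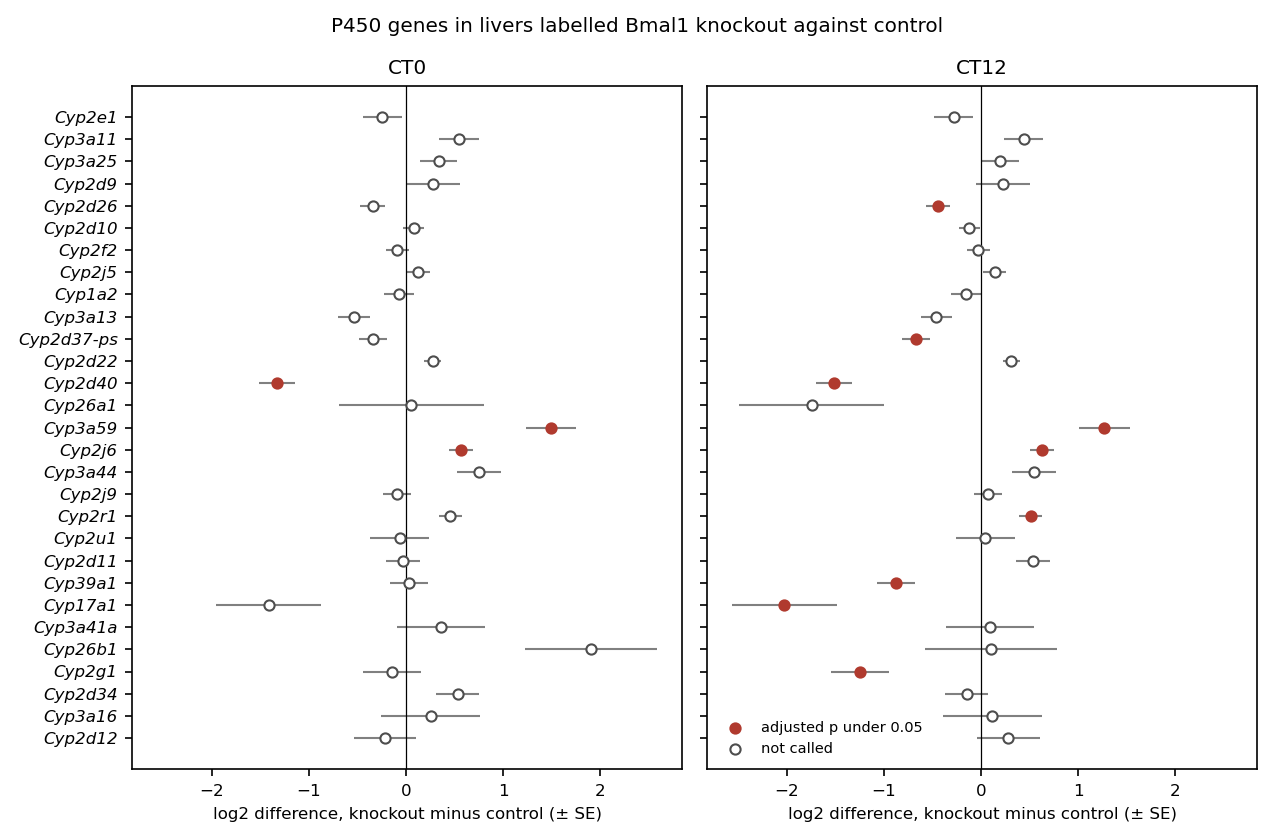
Log2 difference on the log2(RPKM + 0.5) scale, Bmal1 knockout minus control, with the SE of the fit as bars, for the 29 P450 genes tested at CT0 (left) and CT12 (right). Filled points passed the threshold: 3 genes at CT0, and 9 at CT12, of which 6 lie left of 0.

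At CT12, 4 further members passed. Cyp17a1, the steroid hydroxylase and lyase needed for androgen synthesis, stood at 2.29, 3.26 and 5.30 RPKM in control and at 0.764, 0.291 and 0.403 RPKM in knockout livers. It fell by 2.02 ± 0.54 (adjusted p = 0.034), with separate groups. At CT0 a control liver at 11.7 RPKM and a knockout liver at 4.36 RPKM stood apart from the rest, the groups overlapped, and the difference of -1.42 did not pass (adjusted p = 0.255). The CT12 call was lost without control replicate 2 or 3 of that time or without any of its 3 knockout livers (adjusted p 0.0525 to 0.129).

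Cyp39a1, which hydroxylates the oxysterol made in brain on its way to bile acids, stood at 7.31, 7.81 and 6.42 RPKM in control livers at CT12 and at 3.16, 3.22 and 4.82 RPKM in knockout livers. It fell by 0.88 ± 0.20 (adjusted p = 0.0151), and the call was lost without control CT12 replicate 2 or knockout CT12 replicate 1 or 2 (adjusted p 0.0534 to 0.0606). At CT0 its difference was 0.03, with 5.67, 6.91 and 5.45 RPKM in control and 6.83, 7.57 and 4.37 RPKM in knockout livers. The difference between the times, tested as the interaction, was -0.91 ± 0.28 and did not pass (adjusted p = 0.187).

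Cyp2g1, known best from olfactory mucosa, stood at 1.84, 1.51 and 1.01 RPKM in control livers at CT12 and at 0.0748, 0.367 and 0.553 RPKM in knockout livers. It fell by 1.25 ± 0.30 (adjusted p = 0.0208), a call lost without control CT12 replicate 1 or 2 or knockout CT12 replicate 1 or 2 (adjusted p 0.05004 to 0.0765). With a pseudocount of 0.1 the difference was -2.01 and the call was lost (adjusted p = 0.0526). These levels rest on few reads, 2 to 55 per liver up to the common factor. At CT0 the values of 0.0857, 0.539 and 0.735 RPKM in control livers enclosed those of 0.217, 0.379 and 0.377 RPKM in knockout livers.

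Cyp2r1, a vitamin D hydroxylase, stood at 9.67, 9.58 and 7.97 RPKM in control and at 14.0, 12.4 and 13.0 RPKM in knockout livers at CT12. It rose by 0.51 ± 0.12 (adjusted p = 0.0181), except without control CT12 replicate 3 (adjusted p = 0.0799) or knockout CT12 replicate 1 (adjusted p = 0.062). At CT0, control livers had 10.8, 9.75 and 11.2 RPKM and knockout livers 16.1, 12.4 and 15.8. These groups were also separate, but the difference of 0.45 ± 0.12 did not pass (adjusted p = 0.0888).

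Cyp26a1 and Cyp26b1 each differed widely at 1 time without passing, and livers of a group lay far apart. At CT12 Cyp26a1 stood at 35.3, 21.6 and 27.0 RPKM in control and at 15.3, 2.39 and 12.3 RPKM in knockout livers (-1.74 ± 0.75, adjusted p = 0.177), without overlap. At CT0 Cyp26b1 stood at 0.0788, 0.817 and 0.881 RPKM in control and at 13.2, 0.658 and 2.99 RPKM in knockout livers (1.90 ± 0.68, adjusted p = 0.219), and it was called there without knockout CT0 replicate 2. At the other time the differences were 0.05 for Cyp26a1 and 0.11 for Cyp26b1. In the same livers Dhrs3, which reduces retinaldehyde, was the 1 gene called at CT12 among 8 retinoid-handling genes tested (0.50 ± 0.14, adjusted p = 0.0492).

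**Figure D3:**
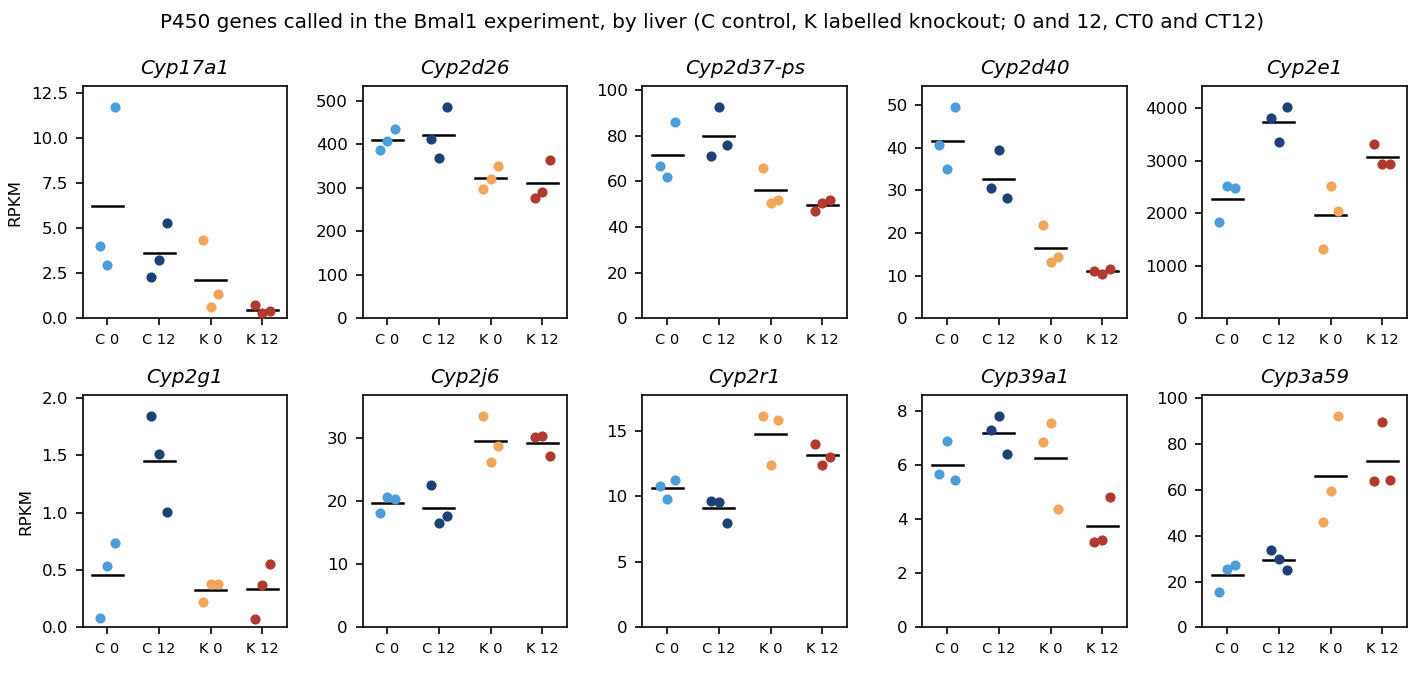
RPKM in each of the 12 livers of the Bmal1 experiment (points) with the group mean (line), for the 10 P450 genes called in any comparison there, on axes from 0. Cyp2d40 lies lower and Cyp3a59 and Cyp2j6 lie higher in the knockout livers at both times, and Cyp2e1 lies higher at CT12 than at CT0.

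Of the CYP1 genes Cyp1a2 alone was tested in the Bmal1 experiment, and it did not pass in any comparison. It stood at 158 to 184 RPKM in control and 151 to 169 RPKM in knockout livers at CT0, with a difference of -0.07 ± 0.15, and at 195 to 219 and 151 to 256 RPKM at CT12. Of 8 genes of the aryl hydrocarbon receptor pathway, 7 were tested and 0 were called in any of the 5 comparisons of the Bmal1 experiment. Cyp2f2, the lung and liver enzyme that activates naphthalene, differed by -0.09 at CT0 and by -0.03 at CT12.

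Between CT0 and CT12 in control livers, 2 of 29 members were called, or 6.9%, both upward, where 10.8% of all genes were called (3.4% upward). Cyp2e1 stood at 1836, 2515 and 2482 RPKM at CT0 and at 3812, 3370 (3370.3 before rounding) and 4026 RPKM at CT12, so the times did not overlap. It rose by 0.72 ± 0.20 (adjusted p = 0.0408). Cyp2g1 rose from 0.0857, 0.539 and 0.735 RPKM to 1.84, 1.51 and 1.01 RPKM, by 1.08 ± 0.30 (adjusted p = 0.0392). Both calls lay near the threshold: that of Cyp2e1 was lost in 9 of 12 fits without 1 liver (adjusted p 0.0502 to 0.139), each of the 6 control livers among them, and that of Cyp2g1 in 8 of 12 (adjusted p 0.0502 to 0.126), among them all control livers but CT0 replicate 3. With a pseudocount of 0.1 the Cyp2g1 difference was 1.71 (adjusted p = 0.0852).

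In knockout livers 0 of 29 members changed between the times (7 at an unadjusted p under 0.05), where 1.9% of all genes were called. Cyp2e1 stood at 1330 (1329.9), 2523 and 2052 RPKM at CT0 and at 3320.4, 2945 and 2938 RPKM at CT12. Its difference of 0.69 ± 0.20 was close to that in control livers (adjusted p = 0.104), and without knockout CT0 replicate 2 it was called. The interaction of genotype and time called 0 members (3 at an unadjusted p under 0.05: Cyp39a1, Cyp2g1 and Cyp2d11) and 1.31% of all genes. For Cyp2g1 the interaction was -1.10 ± 0.42 (adjusted p = 0.307). A difference in the time course between genotypes was therefore not shown for any member.

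Around these enzymes, other genes of the same pathway changed with time in control livers. Of 8 nuclear receptors that act on P450 genes, 4 rose at CT12: the PXR gene Nr1i2 by 0.64 ± 0.15, the CAR gene Nr1i3 by 0.72 ± 0.21, the fatty acid sensor Ppara by 0.71 ± 0.12 and the bile acid receptor Nr1h4 by 0.38 ± 0.11. Of 4 genes for electron donors, Por alone rose, by 1.84 ± 0.21 (adjusted p = 0.00021). Alas1, the rate-limiting enzyme of heme synthesis, rose by 3.97 ± 0.39, and Hmox1, which degrades heme, fell by 0.75 ± 0.14, among 8 heme genes. Of the PAR bZIP factors, which act on P450 genes as clock outputs, Dbp rose by 3.98 ± 0.29, Tef by 2.35 ± 0.11 and Hlf by 0.83 ± 0.19, and their antagonist Nfil3 fell by 1.16 ± 0.16.

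In knockout livers at CT12 several of these genes were lower than in control livers. Por fell by 1.86 ± 0.21 (adjusted p = 0.000152), and its time course differed between genotypes by -1.49 ± 0.29 (interaction, adjusted p = 0.0299). Dbp fell by 2.10 ± 0.29, Tef by 0.96 ± 0.11, Nr1i3 by 0.84 ± 0.21 and Ppara by 1.06 ± 0.12. Alas1 was not called between genotypes. Of 8 heme genes, Fech fell by 0.32 ± 0.08 and Hmox1 rose by 0.50 ± 0.14. Of 8 pericentral hepatocyte genes outside the members, Lgr5 and Lect2 rose, and of 9 periportal genes, Cyp2f2 among them, 0 were called. At CT0 the calls in these lists were Ppara, which fell by 0.63 ± 0.12, and Tef, which rose by 0.98 ± 0.11.

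Genes under growth hormone or with sex-biased expression in liver, other than the members, were also followed. Of 9 tested at CT12, 3 rose and 2 fell in Bmal1 knockout livers. Elovl3 rose by 4.94 ± 0.16, Serpina12 by 2.72 ± 0.47 and the growth hormone signal transducer Stat5b by 0.66 ± 0.12. The male-biased transporter Slco1a1 was among those that fell, by 0.64 ± 0.17. At CT0 Serpina12 alone rose, by 2.71 ± 0.47.

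Some markers of cholangiocytes and neutrophils differed between the Bmal1 genotypes. Of the Kupffer cell or macrophage, endothelial, stellate cell or fibroblast, lymphocyte and erythroid markers tested, none was called between genotypes at either time. The summed RPKM of 5 cholangiocyte markers was 48.6 to 64.8 in control and 93.1 to 152 in knockout livers at CT0, and 27.2 to 49.97 and 88.4 to 124 at CT12. That of 7 neutrophil markers was 32.2 to 112 and 104 to 219 at CT0, and 5.94 to 8.80 and 17.8 to 46.3 at CT12. No marker of these lists was at 0 in all livers of a group. Of the cholangiocyte markers Spp1 was called higher at both times and Sox9 at CT12, and of the neutrophil markers S100a8 and S100a9 at CT12. No neutrophil marker was called between genotypes at CT0, where the sums overlapped. Markers also moved with time: 5 of 7 neutrophil markers were lower at CT12 than at CT0 in control livers, and 5 of 7 in knockout livers. In control livers 2 of 6 stellate cell or fibroblast markers were also lower, with a summed RPKM of 116 to 158 at CT0 and 82.1 to 96.5 at CT12, as were 1 of 5 endothelial and 1 of 4 cholangiocyte markers tested. The part of these cells in the P450 differences was not tested.

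The Nr1d1 libraries differed from each other in ways that touch the members, and the level of their Nr1d1 transcript did not show the labelled knockout as a loss. The Nr1d1 transcript was higher in the liver labelled knockout in 3 of the 4 pairs and lower in replicate 2 at CT12: in replicate 1 it stood at 0.374 RPKM at CT0 and 3.45 at CT12 in control livers and at 6.10 and 11.1 RPKM in livers labelled knockout, and in replicate 2 at 22.0 and 33.4 against 32.9 and 28.4 RPKM. The value covers the whole transcript, so a partial deletion would not show. Arntl, which REV-ERBα represses, stood at 0.597 and 1.30 RPKM in the control livers at CT12 and at 8.00 and 19.3 RPKM in those labelled knockout.

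Transcripts of 4 Y-linked genes (Ddx3y, Eif2s3y, Uty and Kdm5d, chosen after their values were seen) summed to 60.9 to 75.4 RPKM in all 12 Bmal1 livers. In replicate 1 of the Nr1d1 experiment they summed to 20.6 and 19.1 RPKM in the CT0 livers and to 0.168 and 0.0137 RPKM in the CT12 livers, control and labelled knockout in each pair. In replicate 2 they summed to 0, 0, 0 and 0.146 RPKM. The labels give no sex. In replicate 1, CT12 and the absence of Y-linked transcripts cannot be told apart, whereas control and labelled knockout livers of 1 replicate and time were alike in these transcripts. Replicate 2 alone is described as paired-end, and its RPKM summed to 2099300 to 2211050 per library against 588418 to 875424 in replicate 1, so levels are compared within a replicate.

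With the replicate as a block, 0 of 34 members were called between livers labelled Nr1d1 knockout and control at CT0 (0% of all 12738 genes, 2 members at an unadjusted p under 0.05) and 0 at CT12 (0.0393% of all genes, 2 members at an unadjusted p under 0.05). With 2 livers per group the signs of the members often disagreed. The replicates also differed at CT0 in Y-linked transcripts, present in replicate 1 and absent in replicate 2. The block takes up a replicate difference common to both times, and not one seen at CT0 only. The part of this in the disagreement was not tested. At CT0, 6 members were higher in both replicates, 7 were lower in both and 21 went opposite ways. At CT12 the counts were 5, 13 and 16. The shares over all genes were not counted at either time, so these counts are not shown to be particular to the members. The retinoic acid hydroxylase gene Cyp26a1 was among those higher in both replicates at both times, with 17.9 against 23.0 RPKM and 73.7 against 177 RPKM at CT0, and 27.8 against 40.5 and 96.6 against 186 RPKM at CT12 (adjusted p = 0.873 and 0.9998).

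CYP3A genes with female-biased expression gave the largest contrasts. Cyp3a41a stood in replicate 1 at 15.6 RPKM in the control liver and 25.7 in the labelled knockout liver at CT0, and at 1817 and 35.0 RPKM at CT12. In replicate 2 it stood at 5450.5 and 462 RPKM at CT0 and at 2284 and 2419 RPKM at CT12. Within replicate 1, the control liver at CT12 alone was high, and within replicate 2, the labelled knockout liver at CT0 alone was low. Cyp3a41b, whose upstream 250 bases are 99.6% identical to those of Cyp3a41a, followed the same order in every pair. In the Bmal1 livers, which all carried Y-linked transcripts, Cyp3a41a stood at 1.19 to 8.01 RPKM.

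Cyp3a44 and Cyp3a16 were the 2 members that differed by more than 1 on the log2 scale in the same direction in both replicates at CT12. Cyp3a44 stood at 785 RPKM in control and 94.8 RPKM in labelled knockout livers in replicate 1 and at 244 and 111 RPKM in replicate 2 (-2.09 ± 0.90, adjusted p = 0.9998). Cyp3a16 stood at 231 and 22.6 RPKM and at 75.0 and 33.6 RPKM. At CT0 both were higher in the labelled knockout liver in replicate 1 (Cyp3a44 63.9 against 42.6 RPKM) and lower in replicate 2 (42.3 against 355 RPKM), so no common direction over time was seen.

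Cyp2d9, the male-biased member, stood in replicate 1 at 817 and 705 RPKM in the CT0 livers with Y-linked transcripts and at 45.5 and 164 RPKM in the CT12 livers without them (control first). In replicate 2, without Y-linked transcripts, it stood at 173 and 234 RPKM in control livers and at 401 and 166 RPKM in those labelled knockout, at CT0 and CT12. The labelled knockout liver at CT0 thus had the highest Cyp2d9 and the lowest Cyp3a41a, Cyp3a44 and Cyp3a16 of replicate 2.

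**Figure D4:**
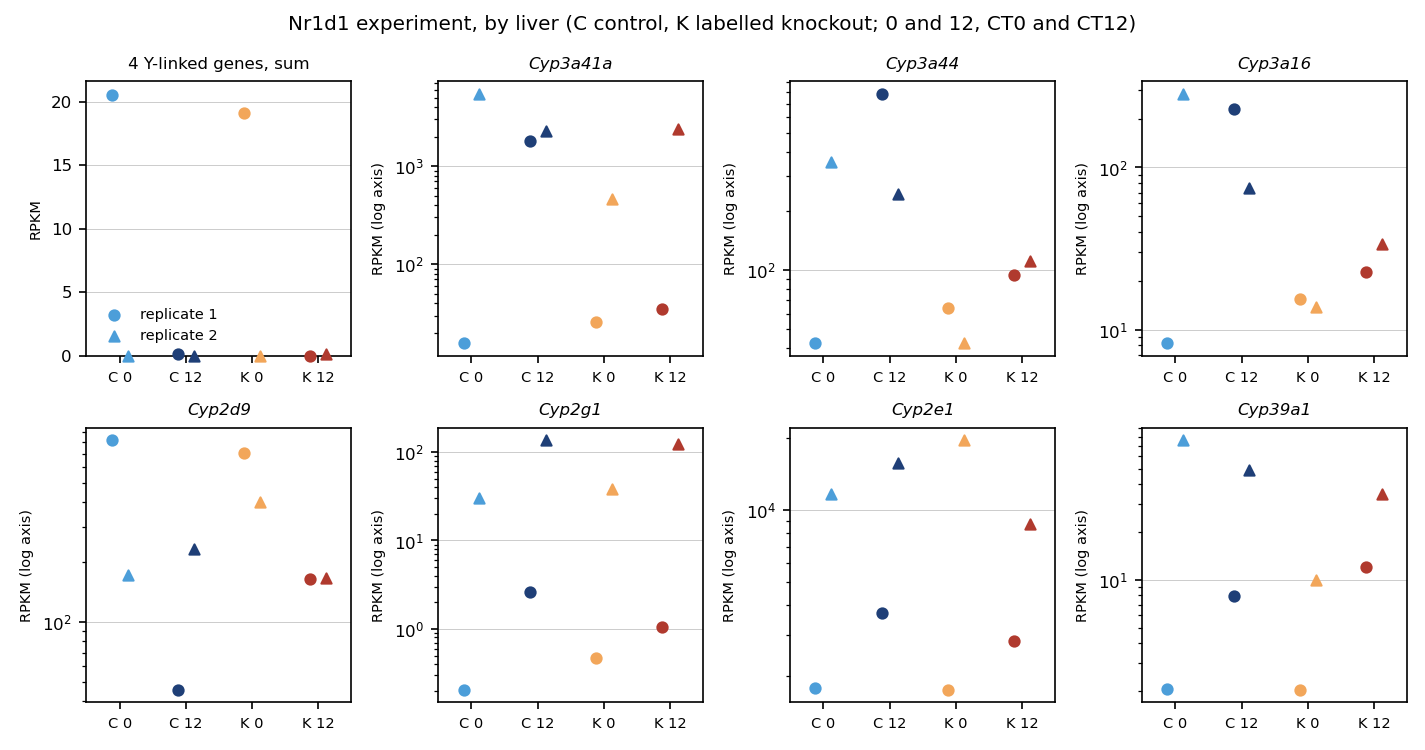
RPKM in each of the 8 livers of the Nr1d1 experiment, circles for replicate 1 and triangles for replicate 2, for the sum of 4 Y-linked genes (linear axis) and 7 P450 genes (log axes). The Y-linked sum is near 20 RPKM in the CT0 livers of replicate 1 (20.6 and 19.1) and near 0 in the other 6, and Cyp2g1 rises from CT0 to CT12 within each replicate and genotype.

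Of the genes called in the Bmal1 knockout, several went the same way in both replicates of the Nr1d1 experiment at CT12, though none was called there. A shared sign was common: of all 34 members tested, 13 were lower and 5 higher in both replicates at that time. The share over all genes was not counted. Cyp2d26 was lower in the livers labelled knockout, at 376 against 586 RPKM in replicate 1 and 1660.2 against 2449 RPKM in replicate 2 (-0.64 and -0.56 on the log2 scale). Cyp2d37-ps was also lower (-0.74 and -0.40), as was Cyp2g1 (-1.01 and -0.12). Cyp2r1 was higher in both replicates (0.41 and 0.12). Cyp39a1 went opposite ways (0.56 and -0.50), and Cyp17a1, which fell in the Bmal1 knockout, was higher in both (0.79 and 1.05).

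Cyp3a59 was higher in the labelled knockout livers of replicate 1 (42.3 against 17.1 RPKM at CT0, 76.1 against 27.1 at CT12) and lower in those of replicate 2 (40.8 against 124, 65.6 against 102). Cyp2d40 differed little, with 43.8 and 43.4 RPKM at CT0 and 37.0 and 34.7 at CT12 in replicate 1, and 223 and 181 and then 201 and 185 RPKM in replicate 2. Cyp2j6 stood at 19.3 and 19.7 RPKM at CT0 and 18.7 and 26.1 at CT12 in replicate 1, and at 54.0 and 52.0 and then 56.3 and 62.7 RPKM in replicate 2. No test of the difference between the experiments was made.

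Between the times, Cyp2g1 was the 1 member of 34 called in control livers of the Nr1d1 experiment, or 2.94% where 0.353% of all genes were called (0.173% upward). It stood at 0.204 RPKM at CT0 and 2.64 at CT12 in replicate 1 and at 30.5 and 135 RPKM in replicate 2. It rose by 2.14 ± 0.26 (adjusted p = 0.0203), with 2.16 in replicate 1 and 2.13 in replicate 2 taken alone. In replicate 1 the CT12 livers also lacked Y-linked transcripts. A replicate by time term was added to the fit after those transcripts were seen. The value from that fit applies to replicate 2, the baseline of the term, and was 2.38 (adjusted p = 0.0325). It is not the same quantity as 2.14. The call was lost without any 1 of the 4 control livers (adjusted p 0.0813 to 0.188) and without the block (adjusted p = 0.99997). In livers labelled knockout Cyp2g1 stood at 0.463 and 1.06 RPKM and at 38.4 and 124 RPKM (1.19 ± 0.26, adjusted p = 0.284).

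Cyp2e1, which rose with time in the Bmal1 controls, stood at 1782 and 3689 RPKM in the Nr1d1 controls of replicate 1 and at 11718 and 15707 RPKM in those of replicate 2, and was not called. In livers labelled knockout it stood at 1756 and 2822 RPKM and at 19590.0 and 8742 RPKM, in opposite directions. Of the 34 members, 23 went opposite ways between the replicates in control livers and 13 in livers labelled knockout, where 0 were called (3 at an unadjusted p under 0.05, 0.055% of all genes called). The share of all genes going opposite ways was not counted. In livers labelled knockout, Cyp39a1 and Cyp17a1 were higher at CT12 by more than 1 on the log2 scale in both replicates. In replicate 1 the CT12 livers also lacked Y-linked transcripts, so time cannot be told apart from that difference. Cyp39a1 stood at 2.04 and 12.1 RPKM and at 10.03 and 34.6 RPKM, and Cyp17a1 at 24.1 and 89.9 RPKM and at 51.2 and 431 RPKM.

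Cyp2d9 and the fatty acid hydroxylase gene Cyp2u1 were lower at CT12 by more than 1 in both replicates in livers labelled knockout. The same limit applies to replicate 1, whose CT0 livers carried Y-linked transcripts and whose CT12 livers did not. Cyp2u1 stood at 7.85 and 1.66 RPKM and at 7.10 and 2.76 RPKM (-1.59 ± 0.49, adjusted p = 0.285). In control livers Cyp2u1 fell with time in replicate 1 (11.1 and 2.04 RPKM) and not in replicate 2 (4.00 and 4.60 RPKM). The interaction called 0 members and 0% of all genes (1 member, Cyp2g1, at an unadjusted p under 0.05). Of the listed pathway genes, those called between the times in control livers were Alas1 (2.84 ± 0.36), Dbp (5.22 ± 0.28) and Tef (2.24 ± 0.22), all higher at CT12.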

How the data were processed

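RNA-seq libraries of 20 mouse livers were used; the 4C files were not used. The authors deposited 1 RPKM value per transcript and library; the tools named, with no role, are bedtools 2.19.1, Bowtie and TopHat2, and the build mm9, per the submitters' processing notes. Bowtie is not named there for Nr1d1 replicate 2. How reads shared by paralogs were counted, with which annotation and strand setting, is not given in the sources used here. Joining gave 46585 transcripts and 22322 symbols, each represented by its best expressed transcript. Genes with a mean of at least 0.5 RPKM were tested with limma 3.58.1 (R 4.3.3; 4 group means, eBayes with trend) on log2(RPKM + 0.5), which understates changes of low genes; the fit was tested on simulated data. Errors are SEs of the fit. P-values set each group difference against the spread between livers that the fit leaves, pooled over the 4 groups.

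Whole reads (tolerance 0.05) were recovered for 90.1% of 16629 symbols above 0 in the Bmal1 libraries; depth of the Nr1d1 libraries is given only as RPKM sums. Values recovered this way describe depth and the few reads of Cyp2g1, and they entered no test.

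Replicate number was a block for Nr1d1 only: the labels describe pairs, replicate 2 alone is paired-end, and same-numbered livers deviated together (r 0.82 to 0.88, against -0.06 to 0.12 for Bmal1). Members, lists and the rule naming genes (every member called is given by liver, others by range) were chosen with earlier results of these data known. Promoters are from RefSeq, GRCm38.p6. Alternatives were other pseudocounts (0.1, 1), filters, scalings, summed transcripts, fits of the compared groups only, the block, and leaving out each liver. The values of 1 gene beside the members are not reported here.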

Additional observations from a re-analysis of the deposited data

How the results depend on the processing

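No value of a called member changed direction under any alternative run. The calls of Cyp2d40 at both times, and of Cyp3a59, Cyp2j6 and Cyp2d37-ps at CT12, were kept in all of them. Counts of members called moved by over 1.5 times as follows. For CT12 against CT0 in Bmal1 controls (2 in the report), the count was 1 with a pseudocount of 0.1, with a mean RPKM of at least 2, with quantile normalization and with the compared groups only, and 0 with no filter. For knockout against control at CT0 (3), it was 1 with the compared groups only, Cyp2d40. For the Nr1d1 controls over time (1), it was 0 with a pseudocount of 1, with no filter and with no replicate block. For livers labelled Nr1d1 knockout over time (0), it was 5 with the compared groups only (Cyp17a1, Cyp2d12, Cyp2d9, Cyp2u1, Cyp39a1). The cause was not tested, apart from the number of genes tested, which rises with no filter. Leaving out 1 liver gave 0 to 2 for Bmal1 controls over time, 0 to 1 for knockouts over time, 2 to 5 at CT0 and 4 to 10 at CT12, with 4 without knockout CT12 replicate 1, 5 without knockout CT12 replicate 2, and 5 at CT0 without knockout CT0 replicate 2. In the Nr1d1 controls over time it gave 0 to 1. A replicate block in the Bmal1 experiment, where the numbers did not pair the livers, gave 2 calls at CT0, 10 at CT12, 2 over time in controls and 0 over time in knockouts and for the interaction. In the Nr1d1 experiment the replicate block left out changed no call but that of Cyp2g1. Median-ratio scaling moved the median of all genes over time in livers labelled Nr1d1 knockout from 0.16 to 0.03 and changed no count. Counts over all genes also moved by over 1.5 times. At CT0 in the Bmal1 experiment 185 genes became 116 with no filter and 108 with the compared groups only, and over time in knockouts 217 became 25 with the compared groups only. In the Nr1d1 controls over time 45 became 8 with no filter, 127 with the compared groups only and 0 with no replicate block. In livers labelled Nr1d1 knockout over time 7 became 148 with the compared groups only and 0 to 4 with 6 other alternatives. Between genotypes there, 0 at CT0 became 6 and 5 at CT12 became 38 with the compared groups only, and 10 at CT12 with the replicate by time term. Depth limits Cyp2g1 and the members under 1 RPKM.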
